A study of Mus musculus with 4 samples.

Results

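Kinesins are motor proteins that use ATP to act on microtubules, and the 42 kinesin genes described here were all genes whose single symbol in the array annotation was Kif or Kifc followed by a digit. They were 42 of 22180 genes measured in N9, a single immortalised microglial line from mouse, and each was represented by the probe set with the highest mean over the 4 arrays. The series asked about dihydropyridines in microglial cells: 2 arrays came from cells given vehicle, 1 from cells given 10 µM and 1 from cells given 20 µM of nimodipine, a dihydropyridine blocker of L-type calcium channels. All groups were the same cell line, in the same serum-containing medium. The labels speak of a respective vehicle without tying either vehicle array to a dose, do not say that the vehicle arrays came from separate cultures, and as used here state neither the vehicle's composition nor the exposure time. The values are log2 expression, so a difference of 1 is a doubling of signal, and levels of different genes were not set against each other because each probe set has its own brightness.

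Spindle motors build and position the mitotic spindle, move chromosomes and complete the division of the cell. Cargo motors carry vesicles, organelles and RNA along microtubules through the cell. Many genes of the first kind are known to be transcribed in a burst around the G2 phase and mitosis, so their RNA is abundant in dividing cells and scarce in resting ones, whereas many cargo motors are used by cells whether or not they divide. On this basis 13 of the 42 genes were listed as spindle motors and 15 as cargo motors, and the other 14 acted in cilia, on microtubule dynamics or in signalling, were of less clear role, or, in the case of Kif4-ps, were annotated as a pseudogene. Cenpe, a mitotic kinesin whose symbol does not follow the pattern, was placed among the mitotic partners.

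The label of the cells was checked against 13 measured microglia and macrophage markers, of which 10 lay no lower than the overall median of the values (5.04) on all 4 arrays, among them Ptprc, Itgam, Csf1r and Spi1. Adgre1, P2ry12 and Tmem119 lay below it on all arrays. The mean of this list was 8.65 and 8.64 with vehicle, 8.51 with 10 µM and 8.69 with 20 µM. On the same criterion, 4 of 8 neuron markers (Rbfox3, Syp, Syn1, Stmn2) and 2 of 6 astrocyte markers (Gfap, Aldh1l1) reached the median. So did 4 of 5 oligodendrocyte markers (Mog, Mbp, Mobp, Cldn11) and 3 of 7 markers of fibroblasts and endothelium (Col1a1, Pdgfra, Pdgfrb). Below it on all arrays were Map2, Snap25, Nefl, Aqp4, Slc1a2, Slc1a3, Gja1, Mag, Pecam1 and Cldn5. By the mean over the arrays, 12764 of 22180 genes reached the median. The neuron list averaged 5.24 and 5.19 with vehicle, 5.13 with 10 µM and 5.26 with 20 µM. The oligodendrocyte list averaged 5.72 and 5.80 with vehicle, 5.75 with 10 µM and 5.85 with 20 µM. In the same order, the astrocyte list averaged 4.70, 4.77, 4.66 and 4.66. The list of fibroblasts and endothelium averaged 5.34, 5.19, 5.40 and 5.46. The part of these lists in the results was not tested.

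The promoters of the motors were searched for a short element tied to transcription in G2 and mitosis. Its letters were not used to choose the genes, but such transcription was part of the basis for listing the spindle motors. The counts below are thus not independent of the choice of genes. The cell cycle genes homology region, or CHR, is a short element known for cell-cycle-dependent transcription in G2 and mitosis, often found near a CCAAT box, which the factor NF-Y binds. RefSeq promoter windows (GRCm38.p6, 250 bases before to 50 after an annotated start) were matched by symbol to 12 of 13 spindle motors (all except Kif20a) and to 10 of 15 cargo motors (all except Kif5a, Kif5b, Kif13b, Kifc2 and Kifc3). Each window was searched on both strands for the CHR forms TTTGAA and TTCGAA and for CCAAT. The letters TTTGAA stood in 10 of 12 spindle motor promoters, in 1 of 10 cargo motor promoters and in 17.9% of all 32851 windows. Counted by gene, with any window of a gene, the share among all 27025 genes was 20.2%. The only cargo motor with the element was Kif1a, in 1 of its windows, at a start that lies inside the annotated gene. Of the spindle motors, Kif18a and Kif2b had none. The other form, TTCGAA, stood in 0 spindle motor promoters, 0 cargo motor promoters and 1.56% of all windows. CCAAT stood in 8 of 12 spindle motor promoters, 3 of 10 cargo motor promoters and 37.4% of all windows, and a CHR form together with CCAAT in 7, in 0 and in 7.53%. Counted by gene, as the motors were, the shares of all genes were 1.80% for TTCGAA, 41.1% for CCAAT and 8.61% for the pair. Of the other kinesins, 11 had a window, and 4 of these held a CHR form, against 19.2% of all windows and 21.7% of all genes. The same count, 4 of 11, held a CHR form together with CCAAT (Kif24, Kif26b, Kif27 and Kifc5b), so the pair was not limited to spindle motors. These matches are descriptions of letters in a window and no evidence of binding.

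The stretches below run 5′ to 3′ from 240 bases before to 30 after the start, with the matches to CHR and CCAAT (or their reverse complements, TTCAAA and ATTGG) in capitals. The first 5 are the spindle motors with the lowest values at 10 µM relative to vehicle among those whose window holds a CHR form. Kif11 is from chr19:37376142-37376411 (plus strand), Kif14 from chr1:136467608-136467877 (plus strand), Kif20b from chr19:34922118-34922387 (plus strand), Kif18b from chr11:102925095-102925364 (minus strand) and Kif4 from chrX:100625825-100626094 (plus strand).
Kif11: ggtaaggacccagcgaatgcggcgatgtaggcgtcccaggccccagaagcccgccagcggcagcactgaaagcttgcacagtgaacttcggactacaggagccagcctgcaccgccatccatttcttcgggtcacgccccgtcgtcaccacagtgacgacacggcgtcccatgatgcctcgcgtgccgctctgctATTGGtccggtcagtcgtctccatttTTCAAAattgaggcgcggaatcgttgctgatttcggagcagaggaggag
Kif14: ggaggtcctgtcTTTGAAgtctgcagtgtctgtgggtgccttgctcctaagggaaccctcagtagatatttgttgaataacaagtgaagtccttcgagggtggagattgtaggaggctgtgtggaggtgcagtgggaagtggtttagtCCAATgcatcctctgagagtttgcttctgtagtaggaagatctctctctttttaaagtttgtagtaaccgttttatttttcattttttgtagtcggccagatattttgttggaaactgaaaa
Kif20b: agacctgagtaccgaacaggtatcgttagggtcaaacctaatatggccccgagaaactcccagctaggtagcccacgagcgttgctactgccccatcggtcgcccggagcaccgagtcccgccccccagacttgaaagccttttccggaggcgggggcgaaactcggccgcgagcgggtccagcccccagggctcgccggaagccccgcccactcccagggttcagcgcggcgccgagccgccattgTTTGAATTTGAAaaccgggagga
Kif18b: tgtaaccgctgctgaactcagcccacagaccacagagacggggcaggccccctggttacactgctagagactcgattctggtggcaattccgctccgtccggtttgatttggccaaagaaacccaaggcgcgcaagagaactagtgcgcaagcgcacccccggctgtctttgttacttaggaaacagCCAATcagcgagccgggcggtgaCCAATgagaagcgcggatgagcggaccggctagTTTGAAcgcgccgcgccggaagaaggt
Kif4: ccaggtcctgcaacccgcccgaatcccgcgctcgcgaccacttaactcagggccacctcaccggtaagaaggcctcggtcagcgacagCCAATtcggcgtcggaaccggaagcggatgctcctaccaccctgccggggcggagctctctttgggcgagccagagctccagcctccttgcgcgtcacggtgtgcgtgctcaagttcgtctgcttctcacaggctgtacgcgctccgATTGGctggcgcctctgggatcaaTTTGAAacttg
In Kif11 the CHR form began 19 bases and the CCAAT box 45 bases before the start, on the reverse strand in each case. Kif18b held 2 CCAAT boxes, 53 and 30 bases before the start, followed by a CHR form at base 4 after it. In Kif20b 2 copies of TTTGAA stood end to end, from bases 8 and 14 after the start. Kif14 differed in that its match lay 228 bases before the start, and that start lies inside the annotated gene.

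For contrast, Kif18a is the spindle motor above the median with no match to any of the motifs, from chr2:109280498-109280767 (plus strand). The cargo motors furthest from vehicle at 10 µM in either direction, Kif3c on the low side, from chr12:3364892-3365161 (plus strand), and Kif3a on the high side, from chr11:53567129-53567398 (plus strand), held no CHR form, and Kif3a held a CCAAT box on the reverse strand. The start used for Kif3a lies inside the annotated gene.
Kif18a: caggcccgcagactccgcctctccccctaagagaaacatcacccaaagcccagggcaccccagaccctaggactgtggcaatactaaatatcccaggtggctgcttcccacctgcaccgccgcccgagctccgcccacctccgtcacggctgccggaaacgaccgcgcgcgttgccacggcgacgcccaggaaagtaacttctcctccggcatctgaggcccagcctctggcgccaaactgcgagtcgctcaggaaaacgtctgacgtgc
Kif3c: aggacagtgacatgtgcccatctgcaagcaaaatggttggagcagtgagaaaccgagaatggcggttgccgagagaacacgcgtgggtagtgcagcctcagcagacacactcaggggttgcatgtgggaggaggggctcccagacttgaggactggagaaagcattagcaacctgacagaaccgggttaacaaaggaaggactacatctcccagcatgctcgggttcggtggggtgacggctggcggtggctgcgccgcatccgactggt
Kif3a: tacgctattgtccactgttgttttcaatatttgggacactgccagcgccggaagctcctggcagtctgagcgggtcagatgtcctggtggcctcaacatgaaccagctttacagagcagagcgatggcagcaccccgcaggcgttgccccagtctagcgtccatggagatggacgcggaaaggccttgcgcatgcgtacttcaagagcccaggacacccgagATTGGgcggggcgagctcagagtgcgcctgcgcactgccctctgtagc

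**Figure D1:**
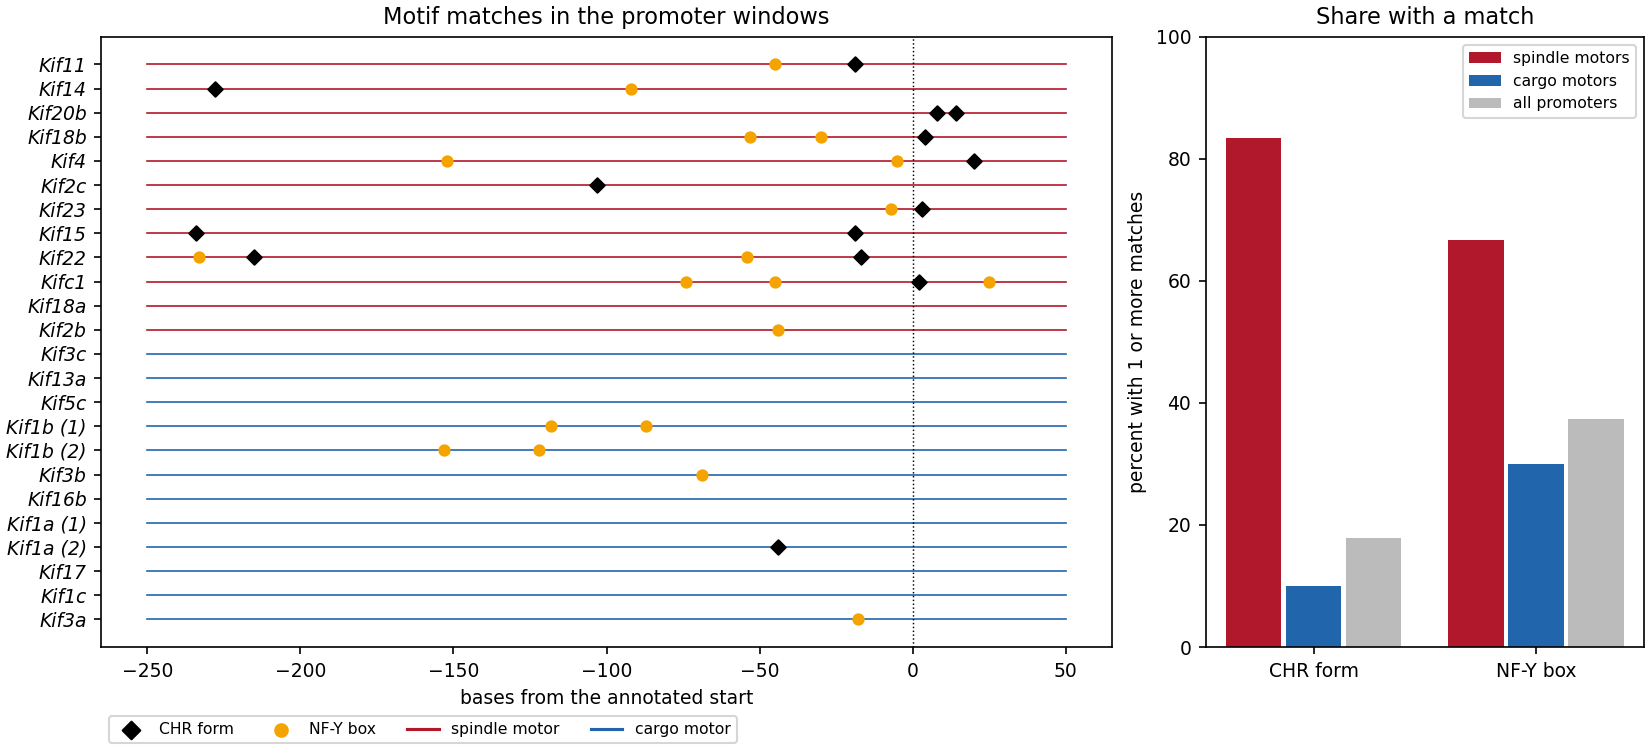
Left, positions of matches in the promoter windows of 12 spindle motors (red lines) and 10 cargo motors (blue lines; Kif1a and Kif1b have more than 1 window), in bases from the annotated start, with CHR forms as black diamonds and CCAAT boxes, labelled NF-Y box, as orange circles. Right, the percent of spindle motors, cargo motors and all 32851 windows with at least 1 match; the CHR form was present in 83.3%, 10.0% and 17.9%.

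At 10 µM nimodipine the spindle motors stood lower than in vehicle while the cargo motors lay on both sides of it. All 13 spindle motors were below the vehicle mean at 10 µM (47.6% of all genes were), with a median log2 difference of -1.17, and 7 of them were lower by 1 or more, a size reached on the low side by 1.06% of all genes and on the high side by 0.514%. The 15 cargo motors had a median of 0.02, with 6 lower and 9 higher (52.4% of all genes were higher) and 0 past 1 in either direction. The median of all genes was 0.01. Of the 13 spindle motors 12, and of the 15 cargo motors 14, had a mean that reached the median of all values. Among all 12764 genes that did, 51.7% were below the vehicle mean at 10 µM and 225 were lower by 1 or more. The direction of the cargo motor median was not stable: it was -0.12 without vehicle 2 and -0.01 with equal array medians. In a limma fit of 3 groups (vehicle, 10 µM, 20 µM), 7 of 13 spindle motors fell at 10 µM (Benjamini-Hochberg adjusted p under 0.05 over all genes), against 0 of 15 cargo motors and 0 of 14 other kinesins, where 1.08% of all genes were called lower, 0.509% higher and 1.59% in either direction. At an unadjusted p under 0.05 there were 11 spindle motors, 6 cargo motors and 3 other kinesins, each of them lower, beside 9.71% of all genes lower and 16.9% in either direction. This fit has 1 residual degree of freedom and assumes that the lone array at a dose varies like the pair of vehicle arrays. Its p-values and SE rest on the gaps between those arrays, which limma pools in part over all genes. The source of these gaps may be technical. A printed SE is thus not the spread of that gene alone. Kif5b and Kif6, with vehicle 2 minus vehicle 1 at -0.0052 and -0.0028, both had an SE of 0.1433 at 10 µM. The contrasts of both doses with vehicle share the same vehicle arrays. In RNA from a whole culture, fewer cells in mitosis and less of these transcripts in each cell cannot be told apart.

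Among the motors that build the spindle, Kif11, the kinesin that slides antiparallel microtubules and pushes the poles apart, read 9.64 and 9.83 on the vehicle arrays, 8.30 with 10 µM and 9.50 with 20 µM nimodipine. The 10 µM array lay far below the other 3, and 20 µM just below both vehicle arrays. The difference at 10 µM was -1.44 ± 0.16 (SE), which is 2.71-fold lower (limma adjusted p = 0.0238). Kif15, which can take over part of the work of Kif11, read 7.52 and 7.84 with vehicle, 6.78 with 10 µM and 7.45 with 20 µM, a difference of -0.90 that missed the threshold (adjusted p = 0.0890). Kifc1, a motor directed to the minus end that focuses spindle poles, read 7.02 and 7.25 with vehicle, 6.53 with 10 µM and 7.07 with 20 µM, with a difference of -0.61 (adjusted p = 0.155). All 3 of these genes were below both vehicle arrays at 10 µM, but only Kif11 and Kif15 were also below both at 20 µM. A near copy, Kifc5b, is listed on the same chromosome as Kifc1, so signal from Kifc1 and Kifc5b may not be fully separate on an array.

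Of the motors that act on chromosomes and on microtubule ends, Kif4, Kif2c and Kif18b fell at 10 µM. Kif4, a chromosome-bound motor that also shapes the central spindle, read 8.19 and 8.44 on the vehicle arrays, 7.09 with 10 µM and 8.37 with 20 µM nimodipine. Its 20 µM value lay between the vehicle arrays, and its difference at 10 µM was -1.22 ± 0.17 (SE; limma adjusted p = 0.0386). Kif22, the other chromosome-bound motor, read 8.41 and 8.73 with vehicle, 7.73 with 10 µM and 8.49 with 20 µM, with a difference of -0.84 that missed the threshold (adjusted p = 0.103). Kif2c, a depolymerase that corrects wrong attachments at kinetochores, read 9.20 and 9.39 with vehicle, 8.13 with 10 µM and 9.11 with 20 µM, and was lower at 10 µM by 2.25-fold (adjusted p = 0.0367). Kif18b, which shortens astral microtubules, read 9.48 and 9.44 with vehicle, 8.21 with 10 µM and 9.21 with 20 µM. Its vehicle arrays were only 0.04 apart, and both doses lay below them, with differences of -1.25 at 10 µM (adjusted p = 0.0264) and -0.25 at 20 µM.

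Kif18a had the smallest difference at 10 µM of the 12 spindle motors above the median. This motor, which holds chromosomes at the spindle equator, read 8.14 and 8.56 on the vehicle arrays, 8.15 with 10 µM and 8.19 with 20 µM nimodipine. Both doses lay between the vehicle arrays, whose difference of 0.41 was the widest of the 13 spindle motors, and the difference at 10 µM was -0.21 ± 0.21 (SE; limma adjusted p = 0.693). Against vehicle 1 alone it was 0.0022. Kif2b, another depolymerase, was the only spindle motor with a mean below the median of all values and read 4.96 and 4.79 with vehicle, 4.70 with 10 µM and 5.10 with 20 µM, so its difference of -0.18 is that of a dim probe set. Kif18a and Kif2b were also the 2 matched spindle motors without a CHR form in the promoter window. Each of the 6 matched spindle motors called lower at 10 µM held one, as did 4 of the 6 not called. For Kif14 and Kif2c, both called, the window lay at a start inside the annotated gene. Their matches stood 228 and 103 bases before that start. In the last 150 bases of the windows, 8 of 12 spindle motors held TTTGAA, and Kif14 and Kif2c did not. This correspondence within the spindle motors was noticed after the values were seen. Outside that list, Kif1a (in 1 of its windows), Kif26b, Kifc5b and the dim Kif27 also held a CHR form. Their differences at 10 µM were 0.05, 0.16, 0.14 and 0.20, above the vehicle mean. Kif24 held a CHR form too and differed by -0.46.

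The motors of cytokinesis, the final division of the cell, included 3 of the genes that fell at 10 µM. Kif14, which works at the midbody, read 8.21 and 8.07 on the vehicle arrays, 6.85 with 10 µM and 7.88 with 20 µM nimodipine. It was 2.45-fold lower at 10 µM (limma adjusted p = 0.0280). Kif20a, which carries Aurora B to the central spindle, read 10.06 and 10.21 with vehicle, 8.97 with 10 µM and 10.17 with 20 µM, and Kif20b, needed for abscission, read 9.15 and 9.47 with vehicle, 8.05 with 10 µM and 9.05 with 20 µM. Both passed the test at 10 µM, with differences of -1.17 ± 0.15 (adjusted p = 0.0345) and -1.25 ± 0.18 (SE; adjusted p = 0.0435). At 20 µM Kif20a lay between the vehicle arrays and Kif20b below them. Kif23, the motor subunit of the centralspindlin complex, read 9.45 and 9.84 with vehicle, 8.69 with 10 µM and 9.53 with 20 µM, and its difference of -0.96 ± 0.20 missed the threshold (adjusted p = 0.0942). Just inside the threshold of 0.05 stood Kif20b (0.0435), and just outside it Kif15 (0.0890). With dim genes (a mean below the median of all values) left out of the limma fit, Kif15, Kif23 and Kif22 also passed at 10 µM, with adjusted p of 0.0232, 0.0249 and 0.0287.

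**Figure D2:**
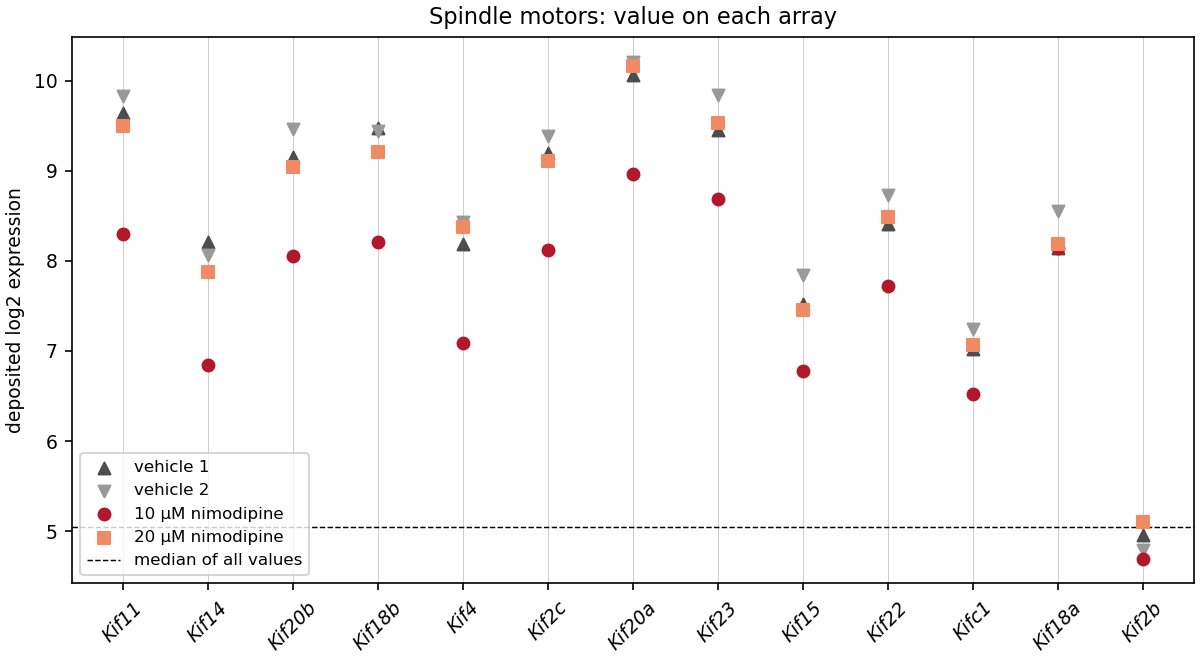
Deposited log2 expression (vertical axis) of the 13 spindle motors on each of the 4 arrays, with the median of all values as a dashed line. The 10 µM point (circle) is the lowest for 12 genes, and for Kif18a it lies at the level of vehicle 1 (8.15 and 8.14).

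Between the doses, all 13 spindle motors were higher at 20 µM than at 10 µM, with a median difference of 0.98, where 49.9% of all genes were higher. The gap was 1 or more for 4 of them, beside 0.96% of all genes higher and 0.676% lower by that much. In the fit of 3 groups, 20 µM against 10 µM called 0 of 42 kinesins, against 0.316% of all genes (0.171% higher and 0.144% lower), and 20 kinesins had an unadjusted limma p under 0.05 (19 higher at 20 µM and 1, Kif5a, lower), beside 13.7% of all genes. The smallest adjusted p among the kinesins was 0.0682, for Kif20a, which was 2.29-fold higher at 20 µM than at 10 µM. The contrast between the doses sets 1 array against 1, takes its spread from the vehicle arrays alone, and shares the 10 µM array with the contrast against vehicle. At 20 µM against vehicle the median of the spindle motors was -0.16, with 10 lower and 3 higher, beside 50.7% and 49.3% of all genes. By limma 0 kinesins were called there (0% of all genes), and 0 were past 1 in either direction, a size reached by 0.0496% of all genes on the low and 0.0361% on the high side. An unadjusted limma p under 0.05 was reached there by Kifc5b on the high side and by Kif5a and Kif4-ps on the low side, beside 6.39% of all genes. At 20 µM 6 of 13 spindle motors lay below both vehicle arrays and 1 above both, against 5 and 5 of 15 cargo motors and 35.1% and 34.5% of all genes. The vehicle arrays themselves differed by a median of 0.23 in the spindle motors, with vehicle 2 higher for 10 of 13 (49.8% of all genes). Between them 0 kinesins differed by 1 or more, beside 0.0676% of all genes lower and 0.0451% higher in vehicle 2. The median of 0.23 is larger in size than the one at 20 µM, that one being 0.05 against vehicle 1 alone and -0.24 against vehicle 2 alone.

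With both nimodipine arrays taken as 1 group against vehicle, limma called 0 of 42 kinesins (0% of all genes, smallest adjusted p = 0.792), and only Kif21b had an unadjusted p under 0.05 (5.37% of all genes did). The spread within that group includes the gap between the doses. Both doses lay below both vehicle arrays for 6 of 13 spindle motors (Kif11, Kif14, Kif15, Kif18b, Kif20b and Kif2c), 2 of 15 cargo motors (Kif13b and Kif1b) and 18.2% of all genes. Both lay above both vehicle arrays for 0 spindle motors, 2 cargo motors (Kif17 and Kif1c) and 19.2% of all genes.

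No cargo motor passed the test in any contrast, and their values follow by family. Of the kinesin-1 heavy chains, Kif5b, the form used by most cell types, read 9.42 and 9.42 on the vehicle arrays, 9.49 with 10 µM and 9.36 with 20 µM nimodipine. The difference at 10 µM was 0.07 ± 0.14 (SE), and it was -0.15 when its dim second probe set was averaged in. Kif5a, known chiefly from neurons, read 6.23 and 6.22 with vehicle, 6.30 with 10 µM and 5.86 with 20 µM, so only the 20 µM array stood apart, with a difference of -0.36. Kif5c, also neuronal, was below the median of all values on all arrays, at 4.74 and 4.61 with vehicle, 4.21 with 10 µM and 4.64 with 20 µM.

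The kinesin-2 subunits had differences of both signs. Kif3a read 8.03 and 8.11 on the vehicle arrays, 8.42 with 10 µM and 8.10 with 20 µM nimodipine, the largest difference on the high side among cargo motors at 10 µM (0.35, limma adjusted p = 0.305). Kif3b, its usual partner, read 7.14 and 6.84 with vehicle, 7.01 with 10 µM and 6.69 with 20 µM, and its value at 10 µM lay between the vehicle arrays. Kif3c, the alternative partner, read 8.07 and 8.32 with vehicle, 7.62 with 10 µM and 8.38 with 20 µM, the largest difference on the low side (-0.57, adjusted p = 0.178). Kifap3, which links this motor to cargo, differed by 0.01 at 10 µM and 0.14 at 20 µM. Kif17, a kinesin-2 motor of dendrites and cilia, had values of 5.25 and 5.28 with vehicle, 5.34 with 10 µM and 5.55 with 20 µM.

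Kinesin-3 motors carry vesicles and endosomes. Kif13a read 7.998 and 7.92 on the vehicle arrays, 7.46 with 10 µM and 8.14 with 20 µM nimodipine, below both vehicle arrays at the lower dose and above both at the higher. Kif13b read 9.001 and 8.91 with vehicle, 8.44 with 10 µM and 8.91 with 20 µM. The differences of Kif13a and Kif13b at 10 µM were -0.50 and -0.51, with limma adjusted p of 0.174 and 0.170. Kif1b, which carries mitochondria and synaptic vesicle precursors, read 8.91 and 8.88 with vehicle, 8.52 with 10 µM and 8.84 with 20 µM (difference at 10 µM -0.37, adjusted p = 0.275). Kif1c, at 8.82 and 8.95 with vehicle, 8.99 with 10 µM and 8.95 with 20 µM, and Kif16b, a motor of early endosomes, at 8.35 and 8.07 with vehicle, 8.23 with 10 µM and 8.32 with 20 µM, differed from the vehicle mean by at most 0.12 at either dose. Kif1a, a neuronal motor, read 5.32 and 5.50 with vehicle, 5.47 with 10 µM and 5.32 with 20 µM.

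Of the minus-end motors on the cargo list, Kifc3 read 7.59 and 7.67 on the vehicle arrays, 7.24 with 10 µM and 7.92 with 20 µM nimodipine. Like Kif13a and Kif3c, it lay below both vehicle arrays at 10 µM and above both at 20 µM. Kifc2 read 5.30 and 4.86 with vehicle, 5.21 with 10 µM and 5.22 with 20 µM, inside the wide gap of its vehicle arrays. In all, 6 of 15 cargo motors lay below both vehicle arrays at 10 µM and 5 above both, beside 35.4% and 39.1% of all genes, while 12 of 13 spindle motors lay below both and 0 above. Of the 12764 genes whose mean reached the median of all values, 5373 lay below both and 4815 above.

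**Figure D3:**
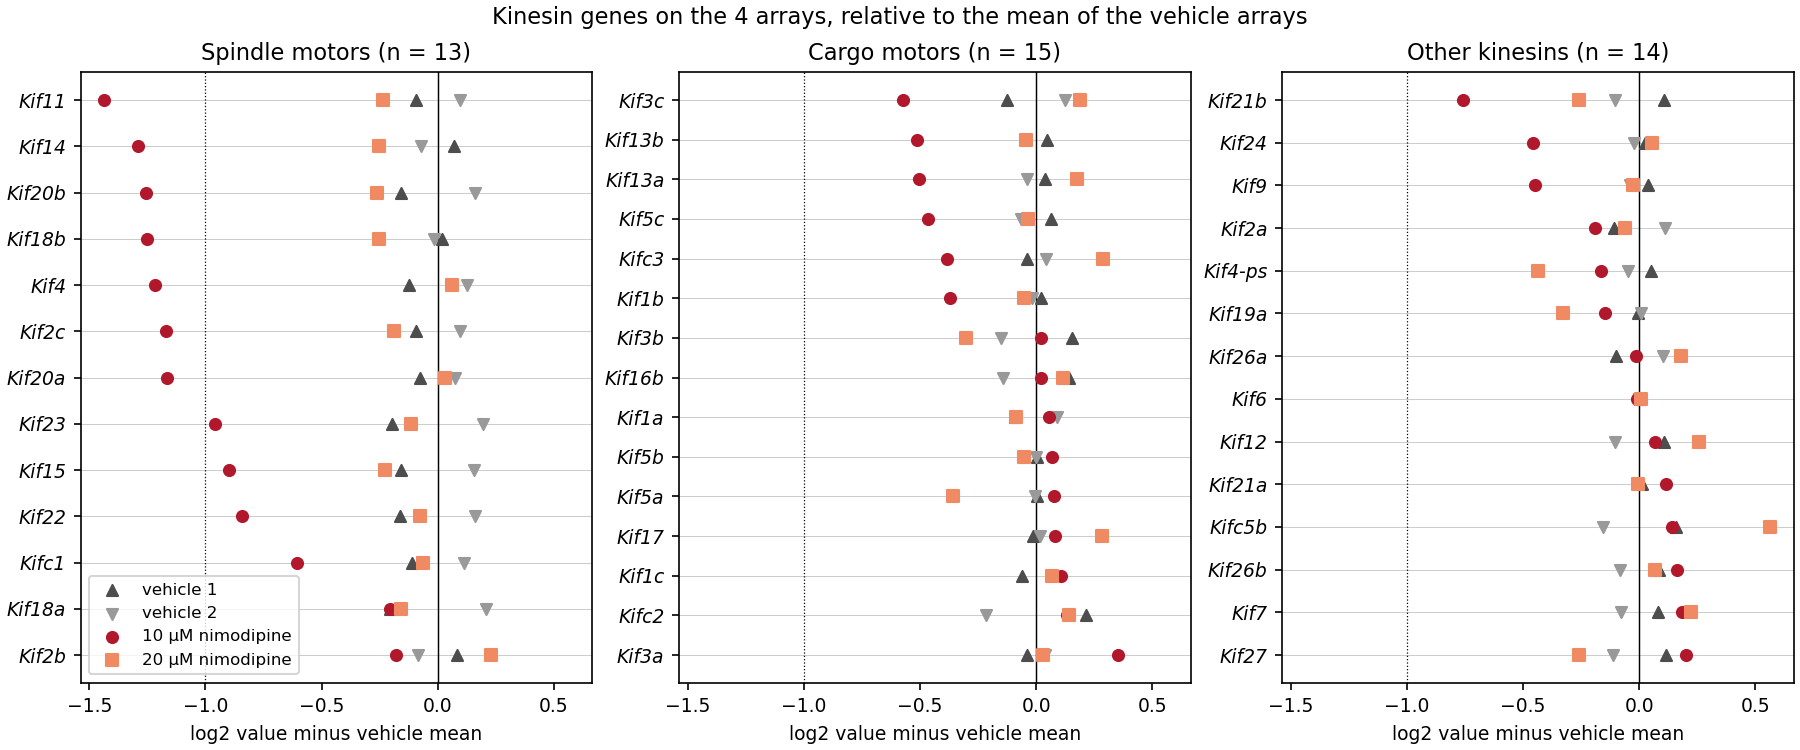
Log2 value of each kinesin on each array minus the mean of its vehicle arrays (horizontal axis), for 13 spindle motors, 15 cargo motors and 14 other kinesins, ordered by the 10 µM value; the dotted line marks a difference of -1. The red circles (10 µM) lie left of the line for 7 spindle motors and for 0 genes of the other panels.

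For the 14 other kinesins the median difference was -0.01 at 10 µM, and at 20 µM it was -0.0008. The gene furthest from vehicle was Kif21b, which slows and pauses microtubule growth and is known from neurons and lymphocytes. It read 9.645 and 9.44 on the vehicle arrays, 8.78 with 10 µM and 9.28 with 20 µM nimodipine, so both doses lay below both vehicle arrays. Its difference at 10 µM was -0.76 ± 0.16 (SE; limma adjusted p = 0.0979), and it passed with dim genes left out (adjusted p = 0.0267). Its relative Kif21a read 7.29 and 7.27 with vehicle, 7.39 with 10 µM and 7.27 with 20 µM.

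The remaining kinesins outside both lists act mostly at centrioles, cilia and microtubule ends. Kif24, which restrains the formation of cilia at the mother centriole, read 7.22 and 7.17 on the vehicle arrays, 6.74 with 10 µM and 7.25 with 20 µM nimodipine. Kif2a, a depolymerase of spindle poles and of neurons, read 9.05 and 9.27 with vehicle, 8.97 with 10 µM and 9.10 with 20 µM. With Kif2a, Kif24 and Kifc5b counted as spindle motors, the median at 10 µM was -0.93 in place of -1.17. Kif7, a regulator of Hedgehog signalling in cilia, read 6.08 and 5.92 with vehicle, 6.18 with 10 µM and 6.22 with 20 µM, and Kif9, of motile cilia, read 5.44 and 5.37 with vehicle, 4.96 with 10 µM and 5.38 with 20 µM. Kif19a, which limits the length of cilia, had its lowest value at 20 µM (5.76 and 5.77 with vehicle, 5.61 with 10 µM and 5.43 with 20 µM).

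Kifc5b read 6.18 and 5.86 on the vehicle arrays, 6.16 with 10 µM and 6.58 with 20 µM nimodipine, the largest difference of the kinesins on the high side at 20 µM (0.56, limma adjusted p = 0.762). Kif26a, a kinesin known to act in signalling rather than transport, read 5.87 and 6.07 with vehicle, 5.96 with 10 µM and 6.15 with 20 µM, and its relative Kif26b read 5.35 and 5.18 with vehicle, 5.43 with 10 µM and 5.34 with 20 µM. Kif6 was almost level, at 5.15 and 5.15 with vehicle, 5.14 with 10 µM and 5.16 with 20 µM. Kif12, Kif27 and Kif4-ps had means below the median of all values. Their differences at 10 µM were 0.07, 0.20 and -0.17. Signal from Kif4-ps, the pseudogene, may not be fully separate from that of Kif4 on an array, and its values are uncertain for that reason.

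Partners of the motors were taken from lists chosen by function. Of 22 genes that work with spindle motors, all 22 were lower at 10 µM, with a median of -1.03, and 12 fell (limma adjusted p under 0.05, against 1.08% of all genes), 11 of them by 1 or more. Their median at 20 µM was -0.13, with 0 called by limma and 2, Aurkb and Ect2, lower at an unadjusted p under 0.05 (3.14% of all genes were). Between the vehicle arrays the median was 0.11. Cenpe, the kinetochore kinesin, read 9.17 and 9.49 on the vehicle arrays, 8.16 with 10 µM and 9.19 with 20 µM nimodipine, a difference of -1.18 (adjusted p = 0.0494). Ect2, which triggers the cleavage furrow with Kif23 and Racgap1, had a difference of -1.30 (adjusted p = 0.0238), and Prc1, the bundler of the central spindle that recruits Kif4, one of -1.22 (adjusted p = 0.0342). Racgap1, the partner of Kif23 in centralspindlin, differed by -0.96 (adjusted p = 0.0565), beside -0.96 for Kif23 itself. The mitotic kinases Plk1 and Ttk, at -1.26 and -1.202, and the spindle protein Nusap1, at -1.28, each passed. Cit, the midbody kinase that works with Kif14, passed at -0.96 (adjusted p = 0.0476). Aurkb, Racgap1 and Cit were picked for mention after their values were seen.

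For the 24 measured partners of cargo transport the median was -0.08 at 10 µM, and -0.02 at 20 µM, with 0 called in either direction by limma. Klc2, Arl8a and Arl8b were also on the list but were not among the measured genes. At 10 µM 17 of 24 were lower (47.6% of all genes were), with 12 below and 3 above both vehicle arrays (35.4% and 39.1% of all genes). Vehicle 2 was itself below vehicle 1 for 19 of 24, against 50% of all genes. At an unadjusted p under 0.05 there were 3 at 10 µM, Klc4, Trak2 and Madd, all lower (9.71% of all genes were), and 0 at 20 µM (6.39% of all genes in either direction). Klc1, a light chain that binds cargo to kinesin-1, read 9.81 and 9.66 on the vehicle arrays, 9.45 with 10 µM and 9.56 with 20 µM nimodipine, with differences of -0.29 at 10 µM and -0.18 at 20 µM, each dose lying under both vehicle arrays. The largest differences were those of Klc4 (-0.53) and Trak2 (-0.52), an adaptor for mitochondria, and neither passed (limma adjusted p = 0.161 for each); both, like Madd, were named after their values were seen.

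**Figure D4:**
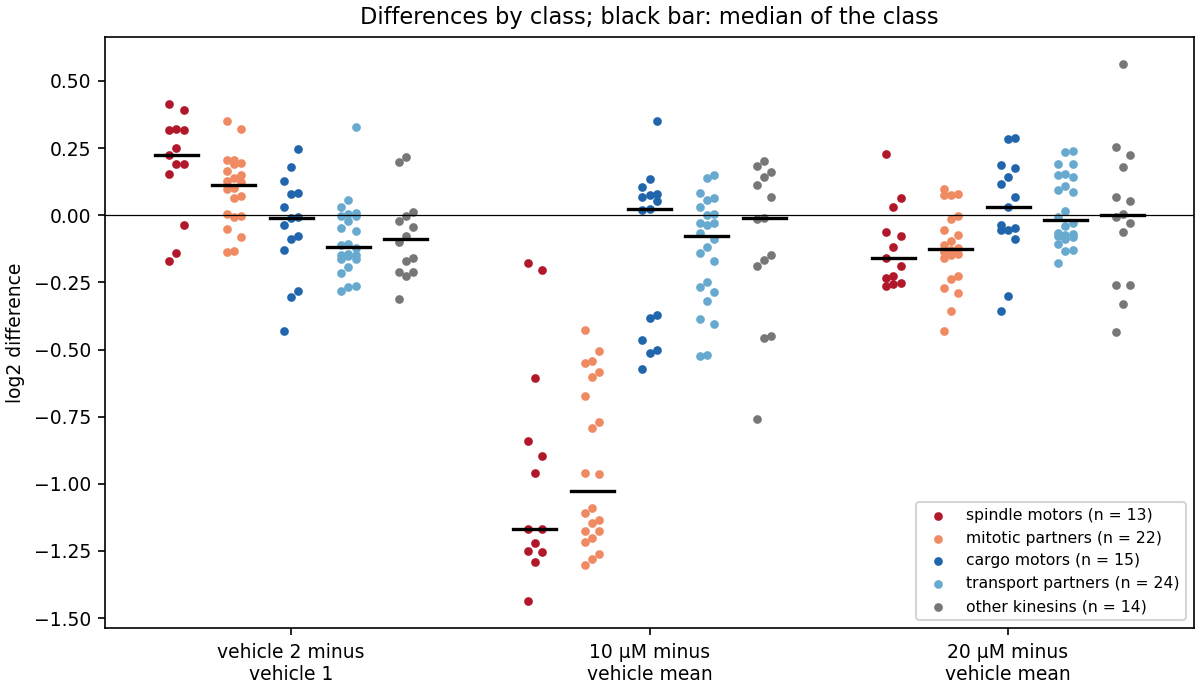
Log2 differences (vertical axis) of single genes by class for vehicle 2 minus vehicle 1, 10 µM minus the vehicle mean and 20 µM minus the vehicle mean, with a black bar at each class median. At 10 µM the medians of spindle motors and mitotic partners are -1.17 and -1.03, beside 0.02 for cargo motors and -0.08 for transport partners.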

How the data were processed

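Total RNA from N9 cells was labelled with the Affymetrix WT PLUS kit and hybridised to 4 arrays, per the labels. The authors deposited log2 expression per probe set; the submitters' processing notes name RMA and, in version 1.2.1.20, the Affymetrix Expression Console. RMA gives arrays a common distribution and so hides a change in the same direction of most genes. The deposited values carry no detection call, and precision is limited by how few arrays there are. The array annotation gave 1 symbol to 23521 of 41345 probe sets, several to 1814 (left out, 1 of them with a kinesin symbol) and did not list 16010. A single probe set per gene (highest mean over the arrays) left 22180 genes; dim means a mean below the median of all values.

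limma 3.58.1 (R 4.3.3) was fitted across all genes with Benjamini-Hochberg adjustment and a threshold of 0.05: nimodipine against vehicle, and 3 groups with a contrast for each dose and between doses. It was tested on simulated data. Lists are described by medians and counts. Named with every array's value were all spindle motors, the remaining kinesins whose mean reached the median, and dim kinesins past a log2 difference of 1 (there were 0); Kif5c, a dim cargo motor, was added to complete its family. Partners named were those past 1, at most 6 a list by size, with Cenpe, Klc1 and Kifap3. Alternatives changed the filter, probe set rule, scaling, eBayes options, threshold, lists, promoter window and arrays used. Members, lists and tests were chosen with earlier results of these data known. Protein sequences were not used here.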

Additional observations from a re-analysis of the deposited data

How the results depend on the processing

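At 10 µM, 7 kinesins were called, and 11 with dim genes left out or with a trend in eBayes (Kif15, Kif21b, Kif22 and Kif23 in addition). For 20 µM against 10 µM there were 0 calls, against 7 with dim genes left out or a trend, 5 with equal array medians or a threshold of 0.1, and 3 with cyclic loess. Nimodipine against vehicle gave 0 to 7 calls with 1 array left out, the 7 being without the 20 µM array. The share of all genes called is given here for the main setting only. A change in these counts of calls therefore cannot be read as particular to kinesins. Wide lists gave a spindle motor median of -0.93 at 10 µM. At 20 µM that median was -0.2376 without vehicle 1 and 0.0488 without vehicle 2. The cargo motor median at 10 µM was 0.0385 with dim genes left out, -0.0137 with equal array medians, 0.0374 with cyclic loess, 0.0411 without vehicle 1 and -0.1185 without vehicle 2. At 20 µM it was 0.0482 with dim genes left out, 0.0001 with equal array medians, 0.0737 with cyclic loess, 0.0038 without vehicle 1, -0.0255 without vehicle 2 and -0.0073 with wide lists. In the last 150 bases, TTTGAA stood in 8 of 12 spindle motor promoters, 1 of 10 cargo motor promoters and 8.01% of all windows (9.23% of all genes). The causes were not tested. Of all recomputed medians and counts, 49 stayed within the spread of replicates or 1.5 times, 16 moved beyond it, and 6 were counts that rose from 0. Of the recomputed differences of single kinesins at 10 µM, 5 newly passed, 10 that had not passed changed sign and 212 did neither. The limma contrasts of single doses have no residual degree of freedom without a vehicle array and gave no test there. No paired analysis was possible because the nimodipine arrays carry no replicate numbers. The number of arrays limits every value, and with no detection call it is not known whether dim genes such as Kif2b and Kif5c lie above background.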
